A study of Mus musculus with 6 samples.

Results

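The genes of bile acid synthesis and hepatobiliary transport were followed in cultured mouse hepatocytes. The 33 members were chosen with earlier results of these data known. They were listed by symbol for their known function, with no threshold on measured values, and were taken from 55487 gene rows in the count tables. They comprised 11 genes of bile acid synthesis, 7 of uptake from blood, 10 of the canalicular (bile-facing) membrane and 5 of export back to blood. All 33 symbols matched an Ensembl identifier in the tables. A total of 31 members had enough counts to be tested, and the transporters Slc22a7 and Slc51a did not.

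Hepatocytes of 2 genotypes were sequenced, AEG-1-WT and AEG-1-C75S, with 3 libraries of each. AEG-1 is the protein of the gene Mtdh, and the C75S allele replaces a cysteine with a serine, which removes a site that a palmitoyl group can occupy. The C75S cells were from homozygotes and the WT cells from wild-type animals out of matings between heterozygotes, all 6 to 8 weeks old. Liver was the tissue, the treatment label was Control in all 6 libraries, and RNA was taken 48 h after the cells were isolated, so both groups had been out of the liver equally long. The labels do not state sex or whether each library came from its own mouse, and p-values therefore measure the spread between these libraries, which may be technical.

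Bile acids are made from cholesterol in hepatocytes along a classic route opened by the rate-limiting sterol hydroxylase Cyp7a1 and an alternative route opened by the mitochondrial hydroxylase Cyp27a1. The products are joined to taurine or glycine, pumped across the canalicular membrane into bile, recovered in the intestine and taken up again from portal blood. When bile acids build up, their nuclear receptor FXR (gene Nr1h4) restrains synthesis and uptake and raises export.

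Total counts on genes were between 16944723 and 21044292 per library, and levels are given as counts per 1000000 counts on genes after TMM scaling of the library size (CPM). On that scale 3 counts corresponded to 0.142 to 0.172 CPM. The targeted gene, Mtdh, was at 212, 192 and 196 CPM in the C75S libraries (mean 199.8 ± 10.5, SD) and 198, 201 and 191 CPM in the WT libraries (197 ± 5.18), with overlapping groups. Its log2 fold change was 0.02 (SE 0.05; edgeR quasi-likelihood test, adjusted p = 0.909). Counting reads per gene does not read the mutated codon, so this value does not check the genotype labels. Across 12741 tested genes, 3.11% (396 genes) passed an adjusted p of 0.05, with 222 higher and 174 lower in C75S. The summed level of 10 hepatocyte markers was 75223 to 88560 CPM in C75S and 83303 to 91561 CPM in WT. Most of that sum was Alb (log2 fold change -0.15, SE 0.07, unadjusted p 0.0439 by edgeR). Among the 10, 2 passed the test as higher in C75S, Fgb and Cyp2e1. In all, 5 had a change above 0 and 5 below, with a median log2 fold change of 0.01. The stellate cell list summed to 72.6 to 89.6 CPM in C75S and 85.6 to 109 CPM in WT, most of it Reln (log2 fold change -0.36, SE 0.15), with Acta2 called higher (not without C75S replicate 1, adjusted p 0.110 by edgeR), and the macrophage list to 96.6 to 140 CPM and 103 to 135 CPM, nearly all of it Cd68, with 0 of its 2 tested genes called by edgeR, DESeq2 or limma-voom and 0 at an unadjusted p under 0.05.

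Of the 31 tested members, 2 passed the test, and both were lower in C75S. These were Slc10a1, the sodium-dependent bile acid uptake carrier NTCP, and Scp2, the peroxisomal thiolase and sterol carrier of side-chain shortening. The share called among members was 6.45%, beside a background of 3.11% in either direction 1.37% for genes lower in C75S and 1.74% for genes higher. With 2 calls, nothing particular to the members is read from that share. Leaving out 1 library gave 0 called members without WT replicate 2, 1 without C75S replicate 1 (Slco1a4), 1 without WT replicate 3 (Slc10a1) and 3 without C75S replicate 2 or 3. The count over all genes was then 201, 253 and 246 without WT replicate 2, C75S replicate 1 and WT replicate 3. At an unadjusted p under 0.05 there were 8 of 31 members, 6 lower and 2 higher, beside 13.4% of all tested genes (6.51% lower and 6.91% higher). The median log2 fold change was -0.02 over the members and 0.00 over all tested genes. A total of 27 of the 31 members had a fitted change within 1.25-fold, as did 11068 of the 12741 genes. The C75S and WT libraries did not overlap for 5 members, beside a background of 18.0% of tested genes (8.96% lower and 9.02% higher). The 4 that were lower in every C75S library were Scp2, Slc10a1, Slco1a4 and Abcb4, and the 1 that was higher was Abcg5.

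**Figure D1:**
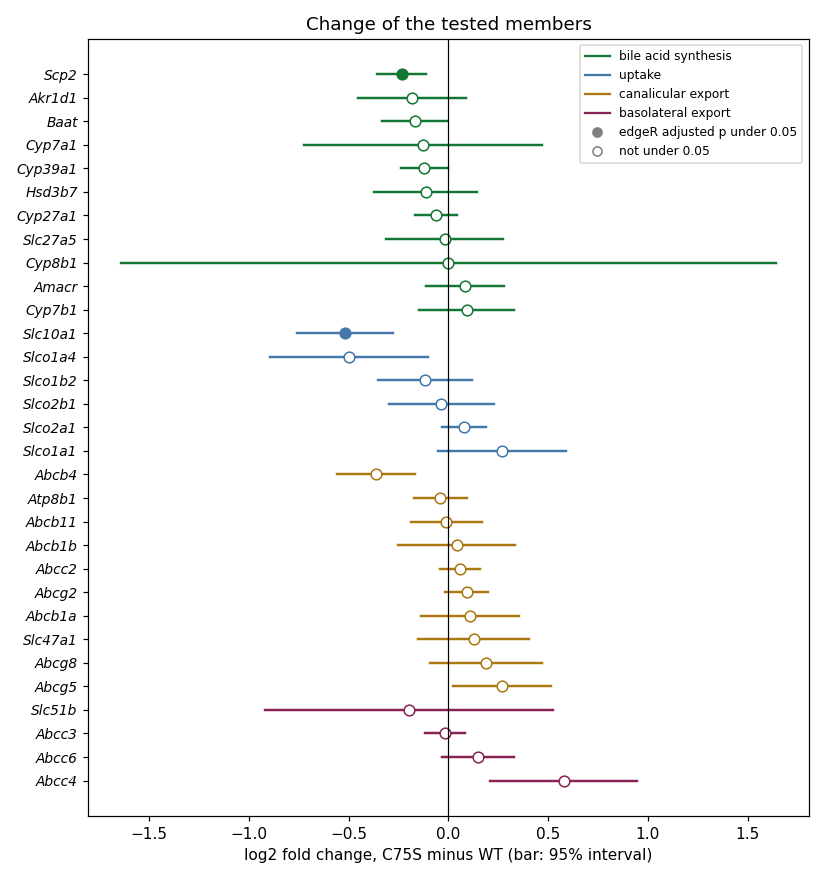
Log2 fold change (C75S minus WT) of the tested members, grouped by role, with 95% confidence intervals from edgeR's quasi-likelihood fit. Slc10a1 and Scp2 are the 2 members that passed the adjusted p of 0.05; Slco1a4 and Abcc4 have comparable or larger changes with wide intervals, and most members lie near 0.

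The bases before the start site are shown for the 4 members that were lower in every C75S library and for Abcb11, a well known FXR target whose groups overlapped. They are RefSeq promoter windows on GRCm38.p6, 250 bases long and written 5′ to 3′ on the strand of the gene. Capitals mark AGGTCA, a hexamer within the sites of many nuclear receptors, FXR among them, searched on both strands. The windows lie at chr12:80968706-80968955 (minus strand) for Slc10a1, chr4:108118548-108118797 (minus strand) for Scp2, chr6:141856221-141856470 (minus strand) for Slco1a4, chr5:8893471-8893720 (plus strand) for Abcb4 and chr2:69342617-69342866 (minus strand) for Abcb11. The RefSeq start of Scp2 lies inside the GENCODE gene span, so its window precedes a start other than the outermost one.
Slc10a1: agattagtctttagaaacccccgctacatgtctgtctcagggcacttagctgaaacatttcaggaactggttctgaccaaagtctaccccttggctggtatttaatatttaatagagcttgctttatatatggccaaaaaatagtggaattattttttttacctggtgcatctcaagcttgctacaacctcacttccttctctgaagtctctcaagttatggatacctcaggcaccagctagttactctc
Scp2: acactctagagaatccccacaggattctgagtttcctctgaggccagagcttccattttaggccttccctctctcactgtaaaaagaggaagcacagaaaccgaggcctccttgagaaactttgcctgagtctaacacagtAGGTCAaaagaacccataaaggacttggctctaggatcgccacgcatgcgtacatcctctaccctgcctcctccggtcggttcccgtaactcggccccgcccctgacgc
Slco1a4: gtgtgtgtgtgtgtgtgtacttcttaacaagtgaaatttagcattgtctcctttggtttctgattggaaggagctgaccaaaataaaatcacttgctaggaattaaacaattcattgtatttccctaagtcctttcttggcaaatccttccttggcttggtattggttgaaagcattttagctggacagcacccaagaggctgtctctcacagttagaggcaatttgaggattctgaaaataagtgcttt
Abcb4: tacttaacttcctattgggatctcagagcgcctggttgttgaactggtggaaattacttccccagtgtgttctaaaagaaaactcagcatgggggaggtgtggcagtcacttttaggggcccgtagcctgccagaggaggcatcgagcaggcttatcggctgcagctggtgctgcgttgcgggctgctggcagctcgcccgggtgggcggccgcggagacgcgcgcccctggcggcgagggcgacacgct
Abcb11: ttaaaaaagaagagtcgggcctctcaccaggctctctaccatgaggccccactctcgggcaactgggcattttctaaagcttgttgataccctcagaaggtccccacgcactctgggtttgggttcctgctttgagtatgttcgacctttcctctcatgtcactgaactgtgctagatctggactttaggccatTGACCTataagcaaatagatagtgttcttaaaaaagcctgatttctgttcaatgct
Slc10a1, Slco1a4 and Abcb4 had no AGGTCA in these windows. Scp2 had 1, starting at base -109 from its start site, and Abcb11 had 1 on the opposite strand, where it reads TGACCT, at base -56. Over 32851 RefSeq windows of the same length 14.02% held the hexamer, and 9 of the 22 members with a window did, namely Abcb11, Abcc2, Abcg2, Akr1d1, Scp2, Slc51a, Slc51b, Slco1a1 and Slco1b2. An exact search was also made for the hexamer followed after 1 base by its reverse complement or by a copy of itself. These were in 0.01% and 0.03% of all windows and in 0 member windows. Exact matches are so rare that 0 among the members carries no information. In the Abcb11 window aggcca, which differs from AGGTCA in 1 letter, precedes TGACCT with 1 base between. The hexamer GTTAAT, part of the site of HNF1, was in 6.43% of all windows and in that of Slco1b2 alone among members. A match is a stretch of letters and no measure of binding, and a window without one says nothing of sites elsewhere.

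Synthesis covered a wide range of levels. In TPM (transcripts per 1000000 transcripts), a per-length scale on which genes can be compared, Scp2 (362 ± 24.3), Cyp27a1 (242 ± 3.93), Cyp39a1 (170 ± 4.28), Baat (150 ± 8.42) and Slc27a5 (129 ± 6.42) led in WT (SD, n = 3). Cyp7b1, Amacr, Akr1d1 and Hsd3b7 had mean levels from 22.8 to 10.2 TPM. Cyp7a1 and Cyp8b1, the hydroxylase needed for cholic acid, were lowest at 1.28 ± 0.154 and 0.851 ± 0.44 TPM. The TPM of Cyp27a1 exceeded that of Cyp7a1 by 196 ± 24.9-fold (SD over 6 libraries), between 170 and 231 in single libraries, and the ratio of Cyp39a1, an oxysterol hydroxylase, to Cyp7a1 was 135.

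**Figure D2:**
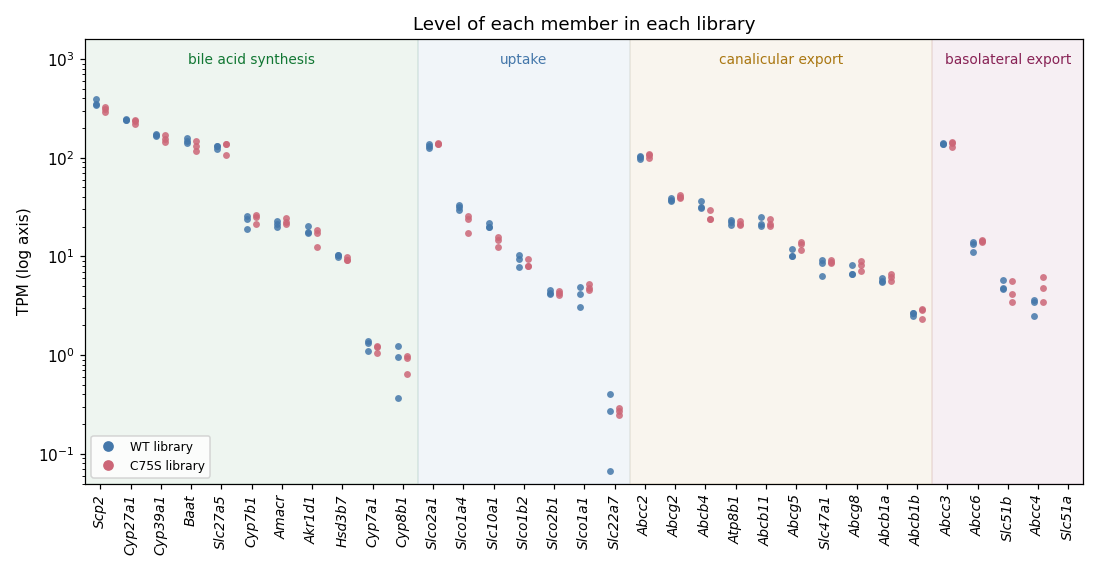
TPM of the members on a log axis, grouped by role, 1 point per library. Scp2 and Cyp27a1 lead the synthesis genes and Cyp7a1 and Cyp8b1 are lowest, at 1.28 and 0.851 TPM in WT; Slc51a, at 0 in all libraries, has no point.

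Scp2 (chr4:108043839-108144998, minus strand, GENCODE M21 on GRCm38) was at 330, 380 and 376 CPM in C75S replicates 1 to 3 and at 402, 415 and 461 CPM in WT replicates 1 to 3. All 3 C75S libraries were below all 3 WT libraries, with a fitted difference of -15%. The log2 fold change was -0.23 (SE 0.06), with an adjusted p of 0.0282 in edgeR's quasi-likelihood test. The call was lost without C75S replicate 1 (adjusted p 0.155), without WT replicate 2 (0.0845) and without WT replicate 3 (0.183). The copy Scp2-ps2 is 99.6% identical over its longest matching stretch of 1371 bases, and all its stretches of at least 95% identity cover 52.8% of the longest Scp2 coding transcript, so the Scp2 count rests on the uniquely placed reads and is uncertain. Scp2-ps2 itself had 8 to 36 counts per library. The gene's thiolase and short carrier isoforms share exons and cannot be told apart in a gene count.

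The enzymes that open the routes did not pass the test. Cyp7a1 was at 1.67, 1.47 and 1.82 CPM in C75S and 1.85, 1.56 and 1.99 CPM in WT, from 29 to 41 counts per library. Its log2 fold change was -0.13 (SE 0.29, 95% interval -0.73 to 0.47, adjusted p 0.907 by edgeR). A 1.5-fold decrease lies inside that interval, so a change of that size is not excluded. Cyp8b1, at 0.632, 0.427 and 0.642 CPM against 0.807, 0.244 and 0.631 CPM from 5 to 17 counts per library, gave 0.00 (SE 0.80). Cyp27a1 was at 157, 177 and 176 CPM in C75S and 176, 181 and 176 CPM in WT, with a log2 fold change of -0.06 (SE 0.05, 95% interval -0.17 to 0.05). For Cyp27a1 the groups overlapped and its 95% interval stayed within 1.25-fold.

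Of the other enzymes, Cyp39a1 (-0.12, SE 0.06, unadjusted p 0.0437) and Baat (-0.17, SE 0.08, unadjusted p 0.0400), which conjugates bile acids to taurine and glycine, had negative changes that did not pass adjustment in edgeR (adjusted p 0.347 and 0.333). Slc27a5, the bile acid coenzyme A ligase that acts before Baat, was at 84.5, 112 and 118 CPM in C75S and 109, 100 and 110 CPM in WT, with C75S replicate 1 below all the others. Akr1d1, a steroid reductase, was at 11.8, 18.1 and 17.3 CPM in C75S and 19.8, 17.2 and 16.8 CPM in WT with the same feature. Cyp7b1 (0.09, SE 0.11), an oxysterol hydroxylase of the alternative route, and Amacr (0.09, SE 0.09), the racemase of the side chain, had groups that overlapped. Hsd3b7 (-0.11, SE 0.13), the dehydrogenase that acts on the sterol ring, shares 2111 exon bases on the same strand with the annotated gene Gm49388, which had 0 counts, so reads there may have been left out of the Hsd3b7 count. The median log2 fold change over the 11 synthesis genes was -0.11, with 8 below 0 and 3 above. C75S replicate 1 was the lowest of the 6 libraries for 7 of these 11 genes, beside 18.4% of all tested genes.

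**Figure D3:**
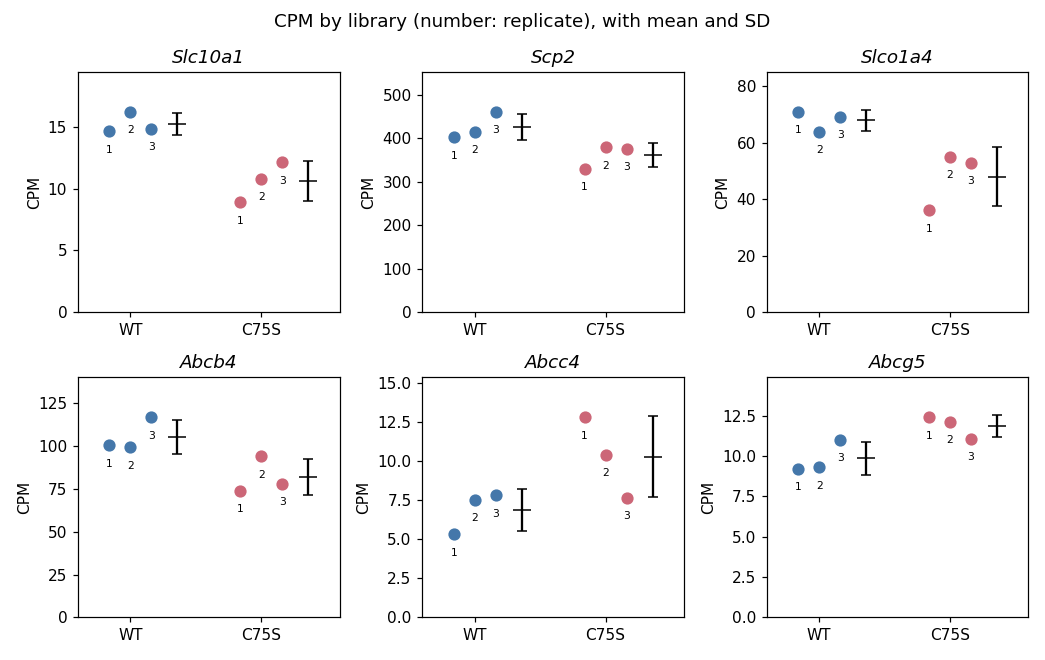
CPM of 6 members in each library (axes start at 0; points are libraries with their replicate number, bars are mean and SD, n = 3). Slc10a1, Scp2, Slco1a4 and Abcb4 are lower in all 3 C75S libraries than in any WT library, Abcg5 is higher in all 3, and Abcc4 overlaps.

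Uptake was carried at mRNA level by members of very different abundance. In WT, Slco2a1, the prostaglandin transporter, had 131 ± 6.15 TPM, Slco1a4 31.3 ± 1.79, Slc10a1 20.5 ± 1.13 and Slco1b2, the liver-type organic anion carrier, 9.20 ± 1.35 TPM. Slco2b1 and Slco1a1 were at 4.33 and 4.06 TPM. Slco2a1 is known from endothelium as well as other tissues, and the 10 endothelial markers summed to 32.4 to 44.0 CPM in C75S and 31.5 to 41.8 CPM in WT, with Clec4g and Vwf at or near 0. Most of that sum was Stab2 (log2 fold change -0.09, SE 0.20). Of the 6 tested endothelial markers 0 were called by edgeR, DESeq2 or limma-voom. At an unadjusted p under 0.05 in edgeR there were 2, beside 13.4% of all tested genes. A change above 0 was seen for 5, and the median log2 fold change was 0.51. Pecam1, Kdr and Lyve1 were higher in every C75S library, as were 9.02% of all tested genes. Counts per library were low for these genes, at 24 to 71, 10 to 20 and 24 to 52. The part of endothelial cells in the Slco2a1 level was not tested.

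Slc10a1 (chr12:80953183-80968705, minus strand) was at 8.90, 10.8 and 12.1 CPM in C75S and at 14.7, 16.2 and 14.8 CPM in WT. All C75S libraries were below all WT libraries, with a fitted difference of -30.2%. The log2 fold change was -0.52 (SE 0.12, 95% interval -0.76 to -0.28), with an adjusted p of 0.0122 in edgeR's quasi-likelihood test. DESeq2 gave an adjusted p of 0.00859 and limma-voom 0.0133. The adjusted p in edgeR was 0.0895 without C75S replicate 1 and 0.0820 without WT replicate 2, with log2 fold changes from -0.62 to -0.41 over the 6 fits that left out 1 library. In bulk RNA, fewer cells that express a gene and less RNA per cell cannot be told apart, which applies to Slc10a1, Scp2 and every change below.

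Slco1a4 (chr6:141805440-141856199, minus strand), an organic anion carrier of the basolateral membrane, was at 36, 54.9 and 52.9 CPM in C75S and at 70.8, 63.7 and 69.1 CPM in WT. The groups did not overlap, but C75S replicate 1 lay far below the other C75S libraries. The log2 fold change was -0.50 (SE 0.16), a fitted difference of -29.2%, and the adjusted p in edgeR was 0.246. Without C75S replicate 1 the change was smaller, -0.33, and the adjusted p was 0.00543. Slco1a4 was called in 2 of 13 alternative settings, the other being the fit with no filter on low counts. Slco1a1, a related carrier, was at 7.98, 8.54 and 9.63 CPM in C75S and 7.36, 5.56 and 8.83 CPM in WT (0.27, SE 0.16), and its forward-strand count was 24.6% of the reverse-strand count. In mouse liver Slco1a1 and Cyp7b1 are known to be higher in males and Slco1a4 in females, and the Y-linked Ddx3y was at 96.1 to 129 CPM in every library while Xist did not exceed 0.390 CPM. Of the 4 tested Y-linked genes Ddx3y rose in C75S (log2 fold change 0.28, adjusted p 0.00319 by edgeR), while Uty (-0.10, SE 0.08), Kdm5d (-0.06, SE 0.07) and Eif2s3y (-0.04, SE 0.06) were not called. Their part in the uptake values was not tested.

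Slco1b2 was at 13, 15.5 and 13.8 CPM in C75S and 15.7, 12.9 and 17.4 CPM in WT, with overlapping groups and a log2 fold change of -0.12 (SE 0.11, 95% interval -0.36 to 0.12). Slco2a1, at 612, 627 and 662 CPM against 571, 631 and 600 CPM, gave 0.08 (SE 0.05). Slco2b1 gave -0.04 (SE 0.13). Slc22a7, an organic anion carrier of the OAT family, had 1 to 6 counts per library and was not tested.

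At the canalicular membrane none of the 10 members passed edgeR's adjusted test, while DESeq2 called 1 (Abcb4) and limma-voom 0. At an unadjusted p under 0.05 in edgeR there were 2, 1 lower and 1 higher, beside 13.4% of all tested genes. Abcb4 (chr5:8893717-8959231, plus strand), the phospholipid floppase MDR2 that delivers phosphatidylcholine to bile, was at 73.8, 94.1 and 77.9 CPM in C75S and 100.5, 99.3 and 117 CPM in WT. The groups did not overlap, with a log2 fold change of -0.36 (SE 0.09, 95% interval -0.56 to -0.17). The adjusted p was 0.0563 by edgeR, 0.00261 by DESeq2 and 0.0501 by limma-voom, so the call depends on the tool. It was called in 6 of 13 alternative settings, with an adjusted p of 8.92e-05 in edgeR without C75S replicate 2. Without C75S replicate 1 the log2 fold change was -0.29 and the adjusted p in edgeR was 0.103. The highest adjusted p in edgeR with 1 library left out was 0.151.

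Abcb11, the bile salt export pump BSEP, was at 34.5, 41.9 and 38.5 CPM in C75S and 36.7, 35.2 and 43.9 CPM in WT. The groups overlapped, with a log2 fold change of -0.01 (SE 0.09, 95% interval -0.19 to 0.17). Abcc2, the conjugate pump MRP2, was at 308, 308 and 296 CPM against 277, 297 and 301 CPM (0.06, SE 0.05, 95% interval -0.04 to 0.16). Abcg2, the breast cancer resistance protein, was at 106, 114 and 111 CPM against 107, 99.9 and 104 CPM (0.09, SE 0.05). The 95% intervals of these 3 pumps stayed within 1.25-fold in either direction.

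Abcg5 and Abcg8 encode the 2 parts of the sterol exporter. Abcg5 was at 12.4, 12.1 and 11.07 CPM in C75S and 9.21, 9.31 and 11.01 CPM in WT, higher in every C75S library but narrowly so. Its log2 fold change was 0.27 (SE 0.12, unadjusted p 0.0339, adjusted p 0.309 by edgeR), and that of Abcg8 was 0.19 (SE 0.14). The flippase Atp8b1 (-0.04, SE 0.06), Slc47a1 (0.13, SE 0.14), Abcb1a (0.11, SE 0.12) and Abcb1b (0.04, SE 0.14) had overlapping groups. Abcb1a and Abcb1b transcripts are 87.7% identical, with 6.6% and 8.5% of their length in near-identical stretches. The median over the canalicular members was 0.07, with 7 above 0 and 3 below.

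Basolateral export runs through Abcc3, Abcc4 and the heteromer of Slc51a and Slc51b, and Abcc6, which mediates ATP release, lies in the same membrane. Abcc3 was the most abundant at 139 ± 1.58 TPM in WT, beside 12.9 ± 1.51 for Abcc6, 5.10 ± 0.644 for Slc51b and 3.18 ± 0.614 for Abcc4. Abcc4 (chr14:118482692-118706219, minus strand) was at 12.8, 10.4 and 7.65 CPM in C75S and 5.32, 7.51 and 7.81 CPM in WT. The groups overlapped in a single library, C75S replicate 3, which lay below the highest WT library. The log2 fold change was 0.58 (SE 0.18, unadjusted p 0.00404), and the adjusted p was 0.0942 by edgeR, 0.0737 by DESeq2 and 0.132 by limma-voom. Without C75S replicate 3 it was 0.75 (adjusted p 0.00926) and without C75S replicate 1 it was 0.40 (0.376).

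Abcc3 was at 263, 276 and 254 CPM in C75S and 264, 267 and 273 CPM in WT, with overlapping groups (-0.02, SE 0.05, 95% interval -0.12 to 0.08). Abcc6 was at 26.0, 28.3 and 28.6 CPM against 27.2, 21.7 and 25.9 CPM (0.15, SE 0.09). Slc51b gave -0.20 (SE 0.35) from 14 to 29 counts. Slc51a had 0 counts in all 6 libraries, which allows up to 0.142 to 0.172 CPM. Its forward-strand count was 185 to 294, where Pcyt1a overlaps on the opposite strand. Abcc3 and Slc51b are also known from bile duct cells, whose markers summed to 181 to 237 CPM in C75S and 161 to 169 CPM in WT. Of the 6 tested markers 1 was called, beside 3.11% of all tested genes. A change above 0 was seen for 4, and the median log2 fold change was 0.49. Krt19 rose (log2 fold change 0.80, adjusted p 0.00151 by edgeR), Spp1 made up most of the sum, Cftr was at 0 and Epcam did not exceed 0.570 CPM in any library. Their part in the values of the basolateral exporters was not tested.

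**Figure D4:**
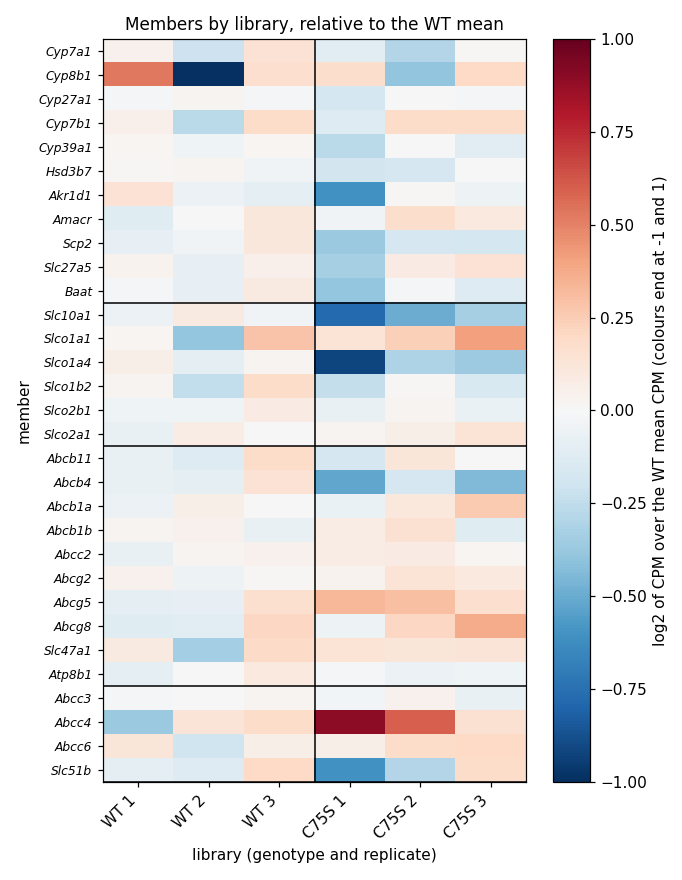
Heat map of the 31 tested members (rows, in order of role) in the 6 libraries (columns), coloured by log2 of CPM over the WT mean CPM, with colours ending at -1 and 1. The column of C75S replicate 1 is the bluest for Akr1d1, Baat, Slc27a5, Slc10a1, Slco1a4, Abcb4 and Slc51b, among others, and Abcc4 is reddest there.

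C75S replicate 1 was the lowest library for 14 of the 31 tested members, beside 18.4% of all tested genes, and for 3 of the 6 tested uptake genes. It was also lowest for 6 of the 10 hepatocyte markers. Without it the median log2 fold change of the synthesis genes was -0.05 in place of -0.11, that of the uptake genes -0.04 in place of -0.08, and the members called numbered 1 (Slco1a4), beside 1.95% of genes then tested. Baat then gave -0.07 and Akr1d1 -0.02.

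Of the 47 other genes of the pathway that were listed, 43 were tested and 0 passed in edgeR, DESeq2 or limma-voom. The share called over all tested genes was 3.11% in edgeR. At an unadjusted p under 0.05 in edgeR there were 7 of the 43, beside 13.4% of all tested genes. Of these 7, 2 were lower and 5 higher, beside 6.51% and 6.91% of all tested genes. FXR (Nr1h4) was at 97.6, 112.9 and 109.6 CPM in C75S and 120, 112.97 and 126 CPM in WT. The groups did not overlap, though the replicate 2 libraries of both were nearly equal, with a log2 fold change of -0.16 (SE 0.06, adjusted p 0.154 by edgeR). Nr0b2, the FXR-induced repressor SHP, had 1 to 6 counts per library, near the floor, and no test. Hnf4a (-0.06, SE 0.05) and the receptor Fgfr4 for the gut hormone that restrains synthesis (0.04, SE 0.08) with its co-receptor Klb (0.04, SE 0.25) overlapped between groups. On the TPM scale Nr1h4 exceeded Klb by 94.1 ± 17.4-fold (SD over 6 libraries). C75S replicate 1 was the lowest library for 9 of the 12 tested regulators, beside 18.4% of all tested genes. It was lowest for 5 of the 9 tested genes of other synthesis steps. The same held for 1 of the 12 other transporters and 1 of the 10 genes of canalicular scaffold and traffic.

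Among the other transporters, Slc10a2, the bile acid carrier ASBT known from ileum and bile duct cells, was chosen after its values were seen. It was at 67.0, 65.4 and 61.5 CPM in C75S and 56.2, 53.8 and 60.7 CPM in WT, with a log2 fold change of 0.18 (SE 0.06, adjusted p 0.125 by edgeR). Its TPM exceeded that of Slc10a1 by 2.64 ± 0.838-fold over the 6 libraries, between 1.76 and 3.99. That ratio pools both genotypes, and its SD includes the difference between them. Mean TPM of Slc10a2 and Slc10a1 was 40.5 and 20.5 in WT, and 46.3 and 14.3 in C75S. With longest-transcript lengths the WT means were 32.8 and 20.9 TPM, so the size of the ratio depends on the length used. The scaffold Pdzk1, also chosen after its values were seen, was at 32.4, 36.7 and 44.2 CPM against 41.3, 48.8 and 52.5 CPM (-0.33, SE 0.11, adjusted p 0.183 by edgeR).

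**Figure D5:**
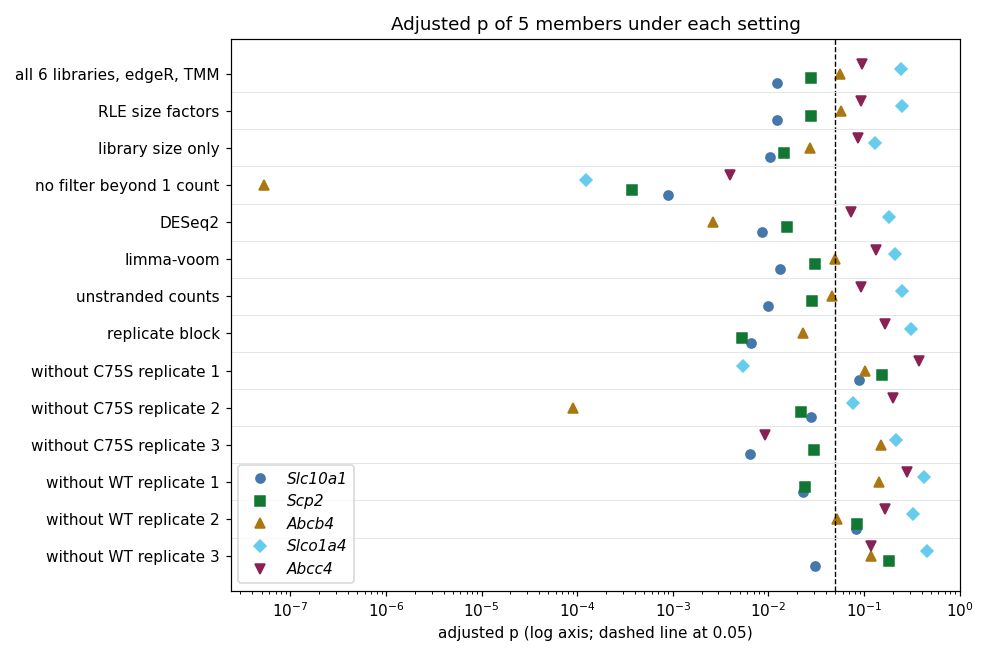
Adjusted p (log axis, dashed line at 0.05) of 5 members under each of the 14 settings. Slc10a1 lies under 0.05 in 11 of the 13 alternatives and Scp2 in 10, while Abcb4 lies close to the line in most settings.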

How the data were processed

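RNA was extracted with a QIAGEN miRNeasy kit and sequenced from Illumina TruSeq libraries on a HiSeq3000, per the labels' protocols. The deposited values are raw counts per gene for each library; the submitters' processing notes name Trim Galore 0.6.6, STAR 2.7.9a, edgeR 3.36.0 and the builds mm10 and GRCm38, and the annotation release is not given in the sources used here. The reverse-strand column was used, since it held 32.9 to 33.9 times the forward-strand counts, and the rows of unplaced reads were dropped. The tables hold multimapping reads in a row apart (17.98 to 18.54% of reads), so genes with near-identical copies are uncertain.

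Counts were filtered with filterByExpr (minimum count 10), scaled by TMM and tested with edgeR 4.0.16 (quasi-likelihood, C75S against WT, Benjamini-Hochberg adjustment over all 12741 genes) in R 4.3.3. TPM used GENCODE M21 exon lengths. The test was run on simulated data first. Alternatives were RLE size factors, library size only, no filter beyond 1 count, unstranded counts, a replicate block, DESeq2 1.42.0, limma-voom (limma 3.58.1) and leaving out each library. The genes named with values per library are called members, the 2 with the highest TPM in each role, Cyp7a1, Cyp8b1, Cyp27a1, Slc10a1, Slco1b2, Abcb11 and Abcc2, and, outside the members, Mtdh, Nr1h4, Nr0b2, Hnf4a, Fgfr4, Klb and markers of lists that moved; Abcb4, Abcc4, Abcg5 and any other were added after their values were seen. Transcript copies were found with BLAST 2.17.0. The members, gene lists and marker lists were chosen with earlier results of these data known. Depth was 16944723 to 21044292 counts on genes per library.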

Additional observations from a re-analysis of the deposited data

How the results depend on the processing

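Over 402 recomputed member values, 373 kept their direction and side of the threshold, 10 newly passed it, 5 no longer did and 14 changed sign. The members called numbered 2, against 5 with no filter beyond 1 count, 3 with DESeq2, library size only, unstranded counts or the replicate block, 2 with RLE size factors or limma-voom, and 0 to 3 when 1 library was left out. Genes called numbered 396, against 573 with no filter, 480 with the block and 201 to 355 when 1 library was left out. Among the other pathway genes 0 were called, against 1 (Pdzk1) with no filter, 1 with the block, and 0 to 1 when 1 library was left out. Same-numbered libraries did not deviate together over all tested genes (correlations 0.0169, -0.0404 and 0.0254). This cannot exclude a shared litter or day, and the labels do not state whether the numbers pair the libraries. Signs that changed when 1 library was left out belonged to uncalled members, with log2 fold changes of -0.352 to 0.358 for Cyp8b1, -0.0275 to 0.191 for Cyp7b1, -0.107 to 0.113 for Slc27a5, -0.0685 to 0.00654 for Slco2b1, -0.0813 to 0.0910 for Abcb11 (0.00103 with library size only), -0.0203 to 0.115 for Abcb1b, -0.0163 to 0.233 for Slc47a1, -0.0848 to 0.00982 for Atp8b1 and -0.0508 to 0.0101 for Abcc3. The ratio of Cyp27a1 to Cyp7a1 in TPM was 224 with longest-transcript lengths, an alternative chosen after seeing the data, against 196. The cause of these differences was not tested. Depth limits Slc51a (0 counts), Slc22a7 (1 to 6 counts per library), Cyp8b1 (5 to 17), Slc51b (14 to 29) and Cyp7a1 (29 to 41).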
